A study of Mus musculus with 8 samples.

Results

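The genes described here are 34 mouse genes of glycolysis and of the response to low oxygen, taken as a fixed list of symbols and matched to the deposited tables by Ensembl ID. Of these, 33 had 1 row in each table, among 19896 IDs with 1 row in both, and Aldoa had 2 rows in each and is described apart. RNA was measured in E14 cells, a long-established mouse embryonic stem cell line, by sequencing of poly(A) RNA in 8 libraries that form 4 groups of 2. Cct7 KD cells carried a doxycycline-inducible short hairpin against Cct7, and Cct5 KD cells carried one against Cct5. Cct7 KD Ctr and Cct5 KD Ctr, the control of each, carried the same inducible vector without a hairpin. All 4 groups were kept in serum with LIF, and received 14 days of puromycin (0.5 µg/ml) followed by 2 days of doxycycline (2 µg/ml). Cct5 and Cct7 encode subunits of CCT, a cytosolic chaperonin with tubulin and actin among its clients, and the study asked whether they hold pluripotent cells back from a totipotent state. Positive clones were picked after selection. The sources used here do not give how many clones a line holds, how many hairpins were used or whether the 2 libraries of a group come from separate cultures. All p-values therefore measure only the spread between libraries, which may be technical.

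Glycolysis breaks glucose down to pyruvate in the cytosol and yields ATP without oxygen. Glucose carriers and hexokinases feed it, lactate dehydrogenase regenerates its cofactor, and pyruvate dehydrogenase kinases keep pyruvate out of the mitochondrial cycle. Hypoxia-inducible factors, an oxygen-labile alpha subunit such as Hif1a joined to Arnt, raise transcription of many of these genes and of angiogenic, mitophagy and matrix genes. Prolyl hydroxylases of the Egln family mark the alpha subunit for breakdown while oxygen is present, so its activity is set largely at the protein level.

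Values are FPKM, fragments scaled to transcript length and library depth, as deposited, so that levels can be set side by side between genes. The steps between low values placed the FPKM denominators of the controls and of Cct7 KD between 18.9 and 54.8 M fragments, and gave no accepted depth for Cct5 KD. Total FPKM lay between 472908 and 497897 in those 6 libraries, and was 749001 and 747293 in Cct5 KD. Apart from 15 genes, each Cct5 KD value was no lower than 1.125 times its counterpart in the Cct7 KD library with the same number, and that multiple made up 71.3% of the FPKM of either Cct5 KD library. The Cct5 KD values are thus not independent of Cct7 KD, and the results below rest first on Cct7 KD. The hairpin target Cct7 was at 14.4 and 17.8 FPKM in Cct7 KD against 269 and 280.1 in its control, and Cct5 was at 70.8 and 73.4 in Cct5 KD against 368 and 367. Cct5 itself is 1 of those 15 genes, since the multiple would be 315 and 305 FPKM, so its values do not follow the relation that the rest of the Cct5 KD column follows. Of 8 embryonic stem cell markers, all 8 were lower in Cct7 KD (limma, against 32% of genes), and their summed FPKM was 1014 to 1022 against 4434 to 4648. In Cct5 KD as deposited 7 were lower and 1 higher (limma, against 11.3% and 78% of genes), and the sum was 2254 to 2259 against 4549.8 to 4608. With Cct5 KD and its control scaled to a common FPKM total, all 8 were lower, against 31.9% of genes. All 8 were also lower there under median-of-ratios scaling, described below, against 43.7% of genes. Of 8 fibroblast feeder markers, 4 were in both tables, and Dcn and Lum were in neither. The sum of the 4 as deposited was 11.8 to 12.3 in Cct7 KD against 10.3 to 11.1, and 17.2 to 17.9 in Cct5 KD against 10.4 to 10.9. Only 2 feeder markers passed the filter on low values, and in either knockdown 1 of them was higher and 1 lower. The shares of all genes were 49.3% and 32% in Cct7 KD, and 78% and 11.3% in Cct5 KD. The part of these shifts in the results below was not tested. In bulk RNA, fewer cells of a type and less RNA per cell cannot be told apart.

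In Cct7 KD, the hypoxia-responsive genes outside glycolysis and both glucose carriers stood above the control, Ankrd37 apart, whereas the glycolytic enzymes were divided. Of the 9 hypoxia-responsive genes, 8 rose, 7 of them at least 2-fold on the log2(FPKM + 1) scale, with a median log2 change of 1.54. The 14 tested enzymes from phosphoglucose isomerase and phosphofructokinase to pyruvate kinase, with the 2 hexokinases among them, had a median log2 change of -0.12, and 5 rose, 7 fell and 2 did not pass. Under median-of-ratios scaling, described below, 2 of the 14 were higher, 9 lower and 3 did not pass. Their median there was -0.36, and 37.1% of all genes were higher and 44% lower. Adm, a vasodilator peptide, had the highest change at 3.00, and Ldhb, the heart-type subunit of lactate dehydrogenase, the lowest at -1.91. Each change is a difference in log2(FPKM + 1), called by limma with Benjamini-Hochberg adjusted p under 0.05 over all genes tested. By that rule 22 of the 33 members (66.7%) were higher against 49.3% of 13588 genes, and 9 (27.3%) were lower against 32% of genes. At least 2-fold, 11 members (33.3%) were higher against 13.5% of genes, and 2, Pfkm and Ldhb, were lower against 6.6%. The 2 knockdown libraries lay above both controls for 23 members and below both for 10, against 54.1% and 36.5% of genes. The median member changed by 0.37 and the median gene by 0.15.

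**Figure D1:**
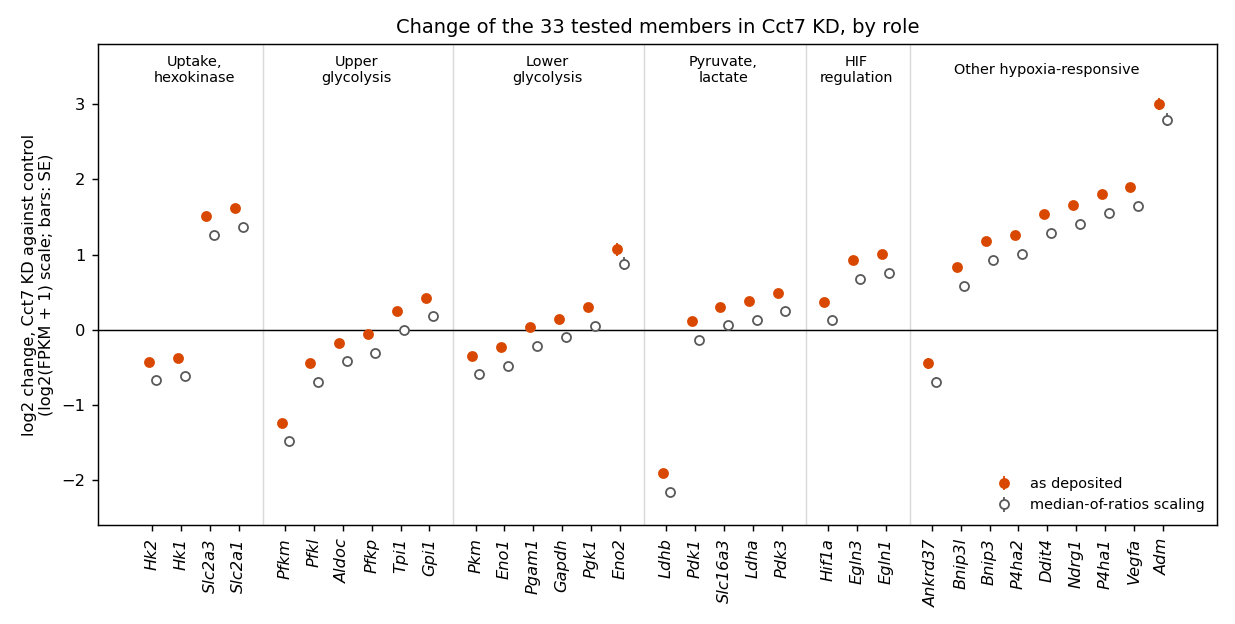
Log2 change of each of the 33 tested members in Cct7 KD against its control (vertical axis, log2(FPKM + 1) scale, bars: SE of the fit), grouped by role and ordered by size within each role, with filled points for values as deposited and open points after median-of-ratios scaling. The hypoxia-responsive genes at the right reach 3.00 (Adm), the enzymes in the middle lie around 0 apart from Pfkm and Eno2, and Ldhb has the lowest value.

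The plot of changes by role shows each member under both scalings. Division by median-of-ratios size factors, a scaling that centres the typical gene, moved the median gene from 0.15 to -0.07. Under it 17 members were higher, 12 lower and 4 did not pass, against 37.1% and 44% of 13546 genes, and 8 were higher at least 2-fold against 9.56%. It turned the sign of Gapdh to -0.10, of Pgam1 to -0.22 and of Pdk1 to -0.13. Across 11 settings, all those run except the 2-fold rule, 17 members (51.5%) were called higher each time and 9 (27.3%) lower each time, against 35% and 26.8% of 13588 genes. The other 7 were Gapdh, Pdk1, Pfkp, Pgam1, Pgk1, Slc16a3 and Tpi1.

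Promoters are printed for the 4 members with the highest changes that have one in the RefSeq promoter table, and for Ldhb, the member with the lowest, because these genes moved furthest. Each run is the 250 bases before the RefSeq start site in GRCm38.p6, the assembly also called mm10, read 5′ to 3′ on the gene's strand. Capitals mark ACGTG or GCGTG, the core letters that hypoxia-inducible factors bind, on either strand, where the reverse strand reads CACGT or CACGC. Adm lies at chr7:110627407-110627656 on the plus strand, Vegfa at chr17:46032378-46032627 on the minus strand, P4ha1 at chr10:59323046-59323295 on the plus strand, Slc2a1 at chr4:119108495-119108744 on the plus strand and Ldhb at chr6:142507958-142508207 on the minus strand.
Adm: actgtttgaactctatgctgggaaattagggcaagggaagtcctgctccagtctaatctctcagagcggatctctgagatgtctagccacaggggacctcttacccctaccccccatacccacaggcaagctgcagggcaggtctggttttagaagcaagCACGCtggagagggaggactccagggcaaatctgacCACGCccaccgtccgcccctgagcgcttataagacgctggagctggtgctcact
Vegfa: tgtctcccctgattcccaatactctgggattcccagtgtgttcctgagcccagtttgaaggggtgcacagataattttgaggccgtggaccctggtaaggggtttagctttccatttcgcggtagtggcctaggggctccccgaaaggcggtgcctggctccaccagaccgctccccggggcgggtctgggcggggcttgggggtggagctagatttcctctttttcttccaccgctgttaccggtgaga
P4ha1: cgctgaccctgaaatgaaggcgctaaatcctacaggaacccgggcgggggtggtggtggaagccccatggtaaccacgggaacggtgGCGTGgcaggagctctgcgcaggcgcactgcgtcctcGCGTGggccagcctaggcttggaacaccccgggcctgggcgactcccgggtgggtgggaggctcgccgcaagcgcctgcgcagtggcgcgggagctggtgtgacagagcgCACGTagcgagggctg
Slc2a1: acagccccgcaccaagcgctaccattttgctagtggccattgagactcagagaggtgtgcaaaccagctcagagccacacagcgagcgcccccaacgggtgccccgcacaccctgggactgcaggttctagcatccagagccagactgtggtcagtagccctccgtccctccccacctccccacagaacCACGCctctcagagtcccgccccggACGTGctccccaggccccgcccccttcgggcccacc
Ldhb: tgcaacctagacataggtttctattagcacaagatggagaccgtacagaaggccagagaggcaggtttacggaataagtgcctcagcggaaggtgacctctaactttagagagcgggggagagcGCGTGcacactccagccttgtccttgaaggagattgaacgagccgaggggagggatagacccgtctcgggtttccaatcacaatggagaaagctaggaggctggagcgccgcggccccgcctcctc
The window of Adm held 2 copies of GCGTG and none of ACGTG, that of P4ha1 held 2 and 1, that of Slc2a1 held 1 and 1, and that of Ldhb held 1 copy of GCGTG. The printed window of Vegfa held neither, which says only that these letters are not in this stretch, and the window of a second RefSeq start of Vegfa held 1 of each.

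Such windows were found for 31 of the 34 members, and Slc2a3, Bnip3l and Ndrg1 had none. At least 1 core was present in a window of 28 of the 31 (90.3%), against 41.5% of 27025 genes. ACGTG was in 19 (61.3%) against 18.5%, and GCGTG in 21 (67.7%) against 30.9%. The E-box CACGTG, which contains ACGTG on both strands, was in 4 (12.9%) against 6.86%. Windows of members were richer in G and C, at a median of 62.2% over 44 windows against 52.4% over 32851, and genes with several start sites have several windows. By call in Cct7 KD, 8 of 9 members at least 2-fold higher had a core, 8 of 10 with a smaller rise, 9 of 9 that were lower and the other 3 of 3. The members were listed as genes of glycolysis and of the response to low oxygen. The 27025 genes were not filtered by expression. The shares are therefore no test of the list, and the matches describe letters and do not show binding.

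Glucose enters through Slc2a1 (GLUT1, chr4:119108711-119137983, ENSMUSG00000028645) and Slc2a3 (GLUT3, chr6:122727809-122801640, ENSMUSG00000003153). Slc2a1 was at 171 and 173 FPKM in Cct7 KD Ctr, and reached 516 and 541 in Cct7 KD, a ratio of means of 3.07 and a log2 change of 1.61 ± 0.03 (SE, limma adjusted p = 1.92e-06). Slc2a3 was at 2357 and 2373 in the control and at 6759 and 6737 in the knockdown, 2.85 times the level (log2 change 1.51 ± 0.04, limma adjusted p = 3.88e-06). Both carriers were far above the control in both knockdown libraries. Slc2a3 was already among the most abundant transcripts of the control, at rank 16 and 15 of 20897 IDs, and was at rank 3 in both Cct7 KD libraries. The hexokinases, which trap glucose as its phosphate, went the other way. Hk2, the inducible form, fell from 74.2 and 71.7 to 54.6 and 53.7 FPKM (-0.42, limma adjusted p = 6.73e-05). Hk1 fell from 29.6 and 27.9 to 21.9 and 22.1 FPKM (-0.37, limma adjusted p = 0.00033). Neither hexokinase overlapped its control.

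In upper glycolysis, all 3 phosphofructokinase genes, which encode the committed step, had a negative change, and 2 passed. Pfkm, the muscle form (chr15:98092589-98132451), fell furthest, from 32.1 and 31.9 to 13.5 and 12.4 FPKM, a level 2.47 times lower (log2 change -1.24 ± 0.05, limma adjusted p = 9.43e-06). Pfkl, the liver form, fell from 87.9 and 89.0 to 64.3 and 65.7 FPKM (-0.44). Pfkp, the platelet form and the most abundant of the 3, was at 165 and 161 in the control and 154 and 159 in the knockdown and did not pass (-0.06, limma adjusted p = 0.124), and its sign turned to 0.01 when libraries were scaled to a common FPKM total. Gpi1, phosphoglucose isomerase, rose from 307 and 303 to 404 and 419 (0.43), a change of 0.18 under median-of-ratios scaling. Tpi1, triose phosphate isomerase, rose from 242 and 254 to 294 and 299 (0.25), a rise that shrank to 0.00 under median-of-ratios scaling and no longer passed. Aldoc, a brain-type aldolase, fell from 20.5 and 21.7 to 18.6 in both libraries (-0.18). Both Cct7 KD values of Aldoc lay above the 16.9 and 17.4 FPKM of Cct5 KD Ctr.

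In lower glycolysis 3 of the 6 enzymes rose, 2 fell and 1 did not pass, shares near the 49.3% and 32% of all genes. Under median-of-ratios scaling 1 was higher, 3 were lower and 2 did not pass, where 37.1% of all genes were higher and 44% lower. Gapdh was at 2474 and 2646 in the control and 2837 and 2842 in the knockdown (0.15, limma adjusted p = 0.0297). That call ended without either Cct7 KD library (limma adjusted p = 0.168 and 0.176), and the sign was -0.10 under median-of-ratios scaling. Gapdh has many processed copies in the mouse genome, and the sources used here do not say how reads with several matches were treated. Pgk1, the first ATP-yielding enzyme, rose from 677 and 688 to 844 and 835 (0.30), although under median-of-ratios scaling it was 0.05 and did not pass. Pgam1 was at 216 and 221 in the control and 224 in both knockdown libraries and did not pass (0.03). Eno1, the main enolase, fell from 735 and 757 to 643 and 632 (-0.23), and its near copy Eno1b was at 123 and 128 in the control. Pkm, pyruvate kinase, fell from 1229.9 and 1242 to 964 and 986 (-0.34). Eno2, the neuronal enolase and the scarcest of the 6 (chr6:124760053-124769673), rose from 1.94 and 1.92 to 4.75 and 5.57 FPKM, 2.68 times the level (log2 change 1.07 ± 0.09, limma adjusted p = 0.00012). It was the single tested glycolytic enzyme that rose at least 2-fold as deposited, and its change was 0.88 under median-of-ratios scaling.

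At the fate of pyruvate, the 2 lactate dehydrogenase subunits separated. Ldha, the muscle-type subunit, rose from 1398 and 1465 to 1859 and 1878 FPKM (0.38, limma adjusted p = 0.000298). Its change was 0.13 under median-of-ratios scaling (limma adjusted p = 0.0313). Ldhb (chr6:142490249-142507957, ENSMUSG00000030246) fell from 172 and 178 to 46.4 and 45.2 FPKM, a level 3.81 times lower (log2 change -1.91 ± 0.03, limma adjusted p = 1.31e-06). All 4 values of each subunit fell into non-overlapping groups. The pyruvate dehydrogenase kinase Pdk3 rose from 23.6 and 26.0 to 34.1 and 36.4 (0.49). Pdk1, a classical hypoxia target, rose by only 0.12, from 61.6 and 62.0 to 67.0 and 67.4, and was -0.13 under median-of-ratios scaling. Slc16a3, the lactate exporter MCT4, rose from 36.8 and 35.3 to 43.9 and 45.9 (0.31), which fell to 0.06 and did not pass under that scaling.

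All 3 genes of HIF regulation rose, as did 49.3% of all genes. Egln1, the main oxygen-sensing prolyl hydroxylase, rose from 14.5 and 14.7 to 30.1 and 30.5 FPKM (1.00 ± 0.03, limma adjusted p = 5.63e-06). Egln3, an isoform that hypoxia itself induces, rose from 23.7 and 23.5 to 43.7 and 47.6 (0.92 ± 0.05, limma adjusted p = 2.13e-05). Hif1a rose from 25.9 and 26.1 to 33.6 and 34.3 (0.37 ± 0.03, limma adjusted p = 0.000119). The ratio of means was 2.07 for Egln1, 1.94 for Egln3 and 1.30 for Hif1a, which was still called higher, at 0.13, under median-of-ratios scaling.

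Among the 9 hypoxia-responsive genes outside the pathway, Adm (chr7:110627661-110629820, ENSMUSG00000030790) went from 2.06 and 2.56 FPKM to 25.4 and 25.5, an 11.0-fold rise (log2 change 3.00 ± 0.08, limma adjusted p = 3.66e-06). Vegfa (chr17:46016993-46032369, ENSMUSG00000023951), the vascular growth factor, went from 20.1 and 19.1 to 76.0 and 75.2, a 3.86-fold rise (1.89 ± 0.04, limma adjusted p = 1.66e-06). Both secreted factors were far above the control in each knockdown library, and Adm was the scarcer of them in the control. P4ha1 (chr10:59323296-59373304, ENSMUSG00000019916), a catalytic subunit of collagen prolyl hydroxylase, went from 33.8 and 32.6 to 118 and 119 (1.80 ± 0.03, limma adjusted p = 1.32e-06). Its paralog P4ha2 went from 26.2 in both controls to 62.9 and 65.2 (1.26). Both subunits rose without overlap with the control. Ndrg1, a stress-induced differentiation gene, rose from 22.4 and 23.1 to 73.1 and 74.5 (1.65 ± 0.03). Ddit4 (REDD1), an inhibitor of mTORC1, rose from 140.3 and 148 to 428 and 414 (1.54 ± 0.04). The mitophagy receptors Bnip3 and Bnip3l rose from 134 and 133 to 307 and 301 (1.18) and from 47.3 and 48.3 to 87.4 and 84.7 (0.84). Ankrd37 was the exception. It was at 58.8 and 68.3 in the control and fell to 46.5 and 46.0 (-0.45 ± 0.07, limma adjusted p = 0.00191), below both controls.

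**Figure D2:**
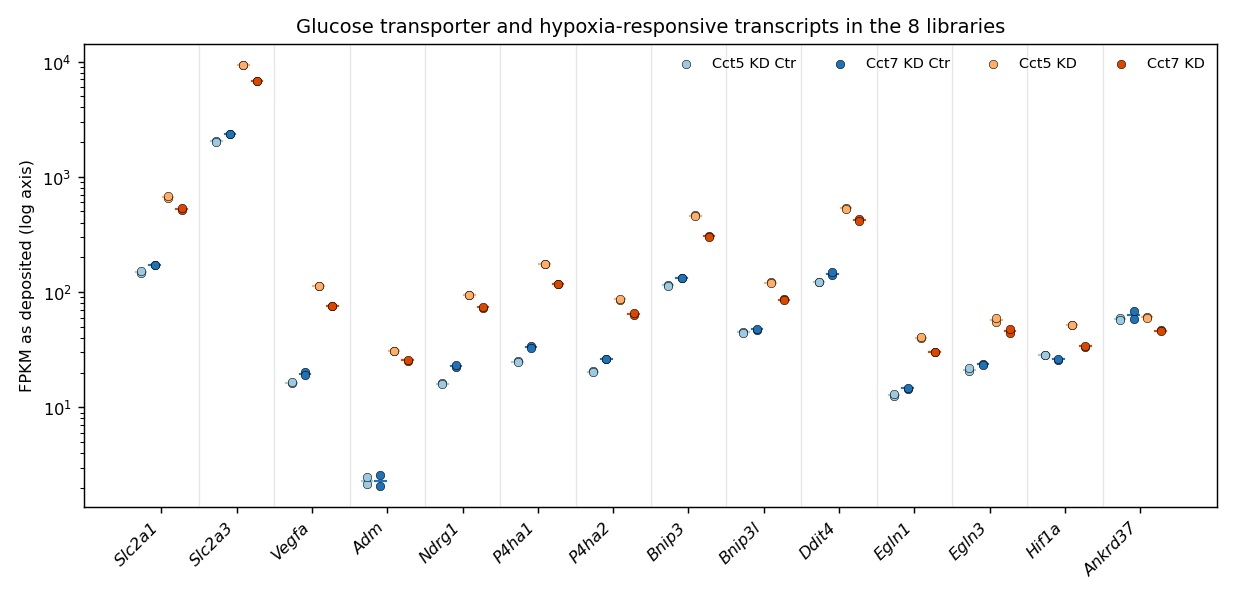
FPKM as deposited (vertical log axis) of the glucose carriers, the HIF regulators and the other hypoxia-responsive genes in the 8 libraries, with 1 point per library, short lines for group means and colours for the 4 groups. The knockdown points lie above both sets of controls for each gene shown except Ankrd37, and Slc2a3 is the most abundant at up to 6759 FPKM in Cct7 KD.

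The plot of levels by library shows that libraries of a group lay close together for most of these genes. The controls of Ankrd37, at 58.8 and 68.3, lay furthest apart relative to its change in Cct7 KD. Members were abundant as a class: in each library 4 to 6 of the 33 were among the 100 and 14 to 17 among the 1000 highest IDs.

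Shares of paralogs within a library do not depend on scaling between libraries. Ldhb made up 10.9% ± 0.0761 (SD, n = 2) of the summed FPKM of Ldha and Ldhb in Cct7 KD Ctr, against 2.39% ± 0.0582 in Cct7 KD. Pfkm made up 11.3% ± 0.0431 of the phosphofructokinase sum in the control and 5.53% ± 0.429 in the knockdown, while Pfkp went from 57.5% ± 0.596 to 66.8% ± 0.46. The shares of Ldhb and Pfkm were below both controls in each knockdown library. P4ha2 went from 44.1% ± 0.601 to 35.2% ± 0.438 of its pair with P4ha1, and Pdk3 from 28.6% ± 1.35 to 34.4% ± 0.929 of its pair with Pdk1. Bnip3 went from 73.7% ± 0.296 to 77.9% ± 0.153 of its pair with Bnip3l. The scarce Eno2 went from 0.258% ± 0.00709 to 0.804% ± 0.0991 of its sum with Eno1. Other pairs kept their proportions more closely: Hk2 was at 71.7% ± 0.335 and 71.1% ± 0.354 of the hexokinases, Egln3 at 61.7% ± 0.357 and 60.1% ± 1.25, and Slc2a1 at 6.78% ± 0.0005 and 7.26% ± 0.238. With 2 libraries against 2, a two-sided exact permutation test cannot give a p below 0.333, and no test was run on the shares.

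**Figure D3:**
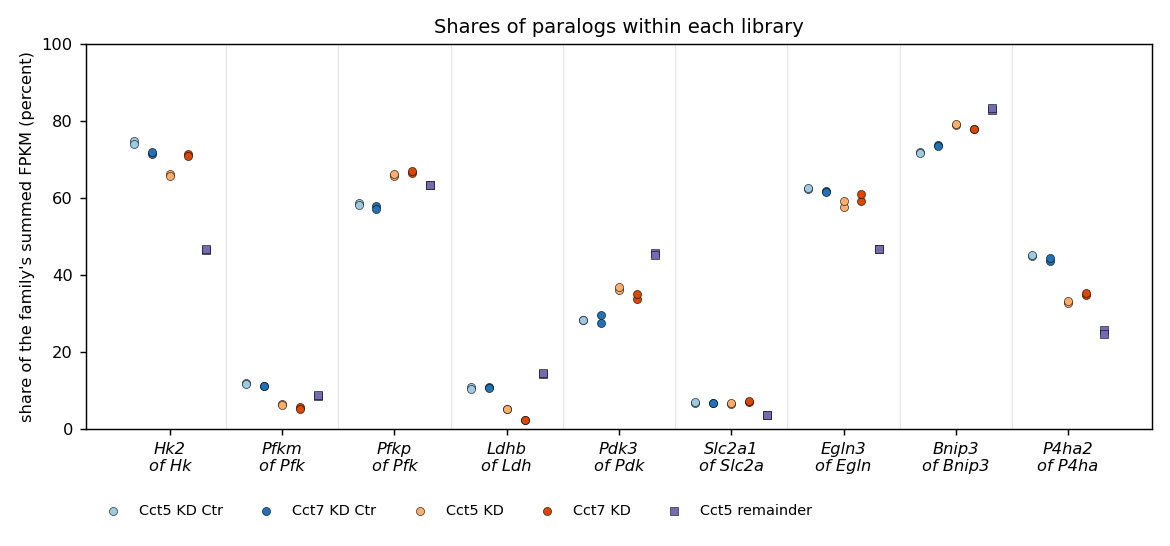
Share of 1 paralog in the summed FPKM of its family (vertical axis, percent) in each of the 8 libraries and in the 2 Cct5 remainders, with 1 point per library and colours for the groups. Ldhb falls from 10.9% in Cct7 KD Ctr to 2.39% in Cct7 KD and is at 14.5% in the remainder, while the mean share of Slc2a1 lies between 6.65% and 7.26% in the 4 groups and is 3.84% in the remainder.

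Aldoa, the more abundant aldolase, was left out of the fits because nothing tells its 2 rows apart. In the Cct7 table the first row held 1066 and 1084 FPKM in the control and 1105 and 1122 in Cct7 KD, and the second row held 1.87, 1.68, 1.69 and 1.86. In the Cct5 table the low control values, 1.43 and 1.78, stood in the first row beside Cct5 KD values of 1244 and 1263, and the second row held 888 and 916 in the control and 1783 and 1795 in Cct5 KD. Taking 1.125 times the first Cct7 KD row from the Cct5 KD rows leaves 0.915 and 0.434 in the first row and 539 and 532 in the second. The annotation names 2 IDs Aldoa, and no change of this gene is called here.

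In Cct5 KD, most members were above the control before scaling, as were most genes. Of 33 members, 29 (87.9%) were higher against 78% of 14179 genes, 1 (Pfkm) was lower against 11.3%, and Hk2, Ldhb and Ankrd37 did not pass. The 2 groups did not overlap for 31 members that were higher and 1 that was lower, against 81% and 13.3% of genes. At least 2-fold, 18 members were higher (54.5%) against 31.2% of genes, and 0 were lower against 2.17%. The median gene changed by 0.68, and by -0.05 after median-of-ratios scaling, under which 20 members were higher and 11 lower, against 37.7% and 43.7% of 14031 genes. With a common FPKM total, 24 were higher and 6 lower, against 50.5% and 31.9% of 14053 genes. The multiple of Cct7 KD made up between 33.9% (Ldhb) and 93.4% (Adm) of a member's Cct5 KD value, with a median of 75.9% over the 33.

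What Cct5 KD holds beyond Cct7 KD was read from the remainder, the Cct5 KD value minus 1.125 times the same-number Cct7 KD value, set against Cct5 KD Ctr with median-of-ratios scaling. The sources used here do not say how the values came to be tied, so the remainder is arithmetic on the deposited values. Its low values, unlike those of Cct5 KD, were whole multiples of 1 fragment in 99.02% and 99.14% of cases. That step gives FPKM denominators of 55.9 and 52.8 M fragments. Over IDs listed 1 time, the remainder's total was 214123 and 213575 FPKM, against 471748 to 496748 in the controls and Cct7 KD. With so low a total, its denominators cannot be read as the depth of a sequenced library. In the remainder 24 members (72.7%) were higher against 42.1% of 11703 genes, and 7 (21.2%) were lower against 42.8%. With a common FPKM total in place of that scaling, 22 were higher against 33.9% of 11708 genes and 11 lower against 51.1%. Both Cct5 KD and the remainder are set against Cct5 KD Ctr. In that control 31 of the 33 members were lower than in Cct7 KD Ctr (median log2 difference 0.15), as described below. How far this raises the counts of higher members was not tested. P4ha1 was at 111 and 109.96 FPKM in the scaled remainder against 25.4 and 24.5 in Cct5 KD Ctr (log2 change 2.07, limma adjusted p = 1.2e-07), and Vegfa at 71.6 and 72.1 against 16.2 and 16.6 (2.03, limma adjusted p = 1.26e-07). Both stood clear of the control libraries in the remainder as in Cct7 KD. Eno2 (1.52), Bnip3 (1.42), Slc2a3 (1.13), Gpi1 (1.12) and Aldoc (1.04) were also higher at least 2-fold, which made 7 members against 8.38% of genes. Adm, with the highest change in Cct7 KD, was at 0.82 here, and Slc2a1 at 0.24. Ldhb was higher, at 264 and 261 against 157 and 151 (0.76, limma adjusted p = 1.16e-06), although it was lower in Cct7 KD. Hk2 was lower, at 28.0 in both against 70.4 and 70.9 (-1.29), as were Ankrd37 (-1.37), Pdk1 (-0.61) and Egln3 (-0.53). No test of the difference between the remainder and Cct7 KD was run. The Ldhb share was 10.8% ± 0.329 in Cct5 KD Ctr, 5.34% ± 0.0506 in Cct5 KD and 14.5% ± 0.105 in the remainder.

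**Figure D4:**
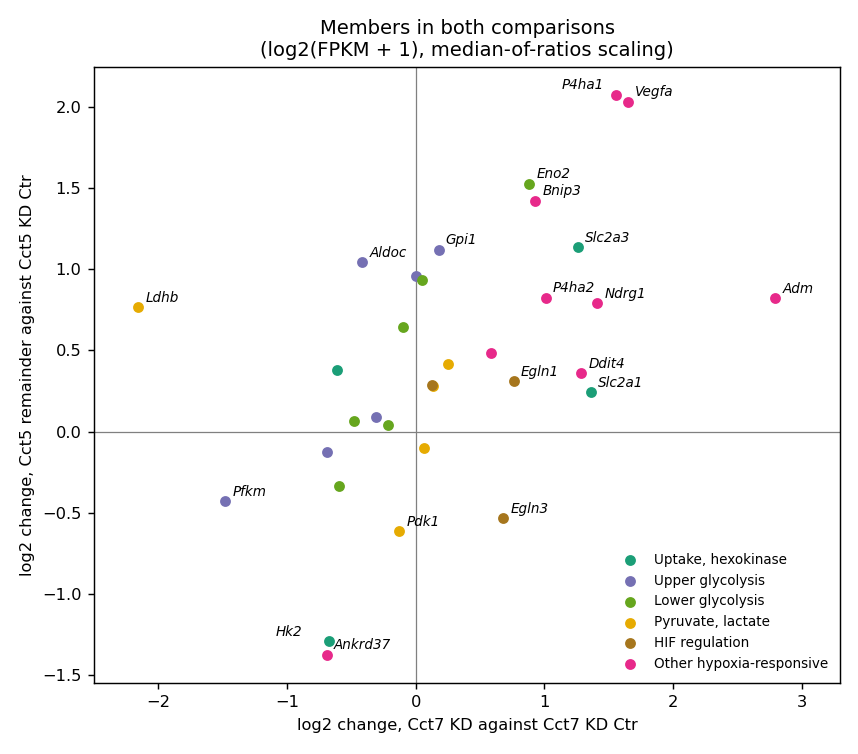
Log2 change of each of the 33 members in Cct7 KD against its control (horizontal axis) and of the Cct5 remainder against Cct5 KD Ctr (vertical axis), both after median-of-ratios scaling, with 1 point per gene coloured by role. P4ha1 and Vegfa are high on both axes, Adm lies far to the right at 0.82 on the vertical axis, and Ldhb is low on the horizontal axis and above 0 on the vertical.

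The plot of both changes sets Cct7 KD beside the remainder for each member, and a point at the upper left or lower right is a gene whose signs differ between them. The Cct7 KD values enter the horizontal axis directly, and a multiple of them was subtracted to form the remainder on the vertical axis. Whether the remainder still depends on them was not tested.

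The 2 sets of empty-vector controls differed little, but the members leaned to one side. With 4 libraries, limma called 0 members and 0 of 12762 genes (0%), while 24 members and 2296 genes had an unadjusted p under 0.05. Of the 33 members, 31 (93.9%) were higher in Cct7 KD Ctr than in Cct5 KD Ctr, against 56% of genes, with a median log2 difference of 0.15 against 0.01. Libraries did not overlap for 28 members that were higher in Cct7 KD Ctr and for 1 that was lower (Hif1a), against 29.5% and 21.6% of genes. The largest differences were in Ndrg1, at 22.4 and 23.1 in Cct7 KD Ctr against 16.3 and 15.8 in Cct5 KD Ctr (0.48, limma adjusted p = 0.071), P4ha1 (0.40), P4ha2 (0.34) and Gpi1 (0.30). A fit of all 8 libraries, which shares their spread, called 18 members higher and 1 lower against 2.01% and 1.2% of 13840 genes. That fit counts the Cct5 KD libraries as independent of Cct7 KD, although their values are tied. With a common FPKM total, 5 were called higher against 0.11% of 12761 genes. Without Cct7 KD Ctr replicate 1, limma called 7 members higher against 0.628% of 12747 genes, with the spread taken from the 2 Cct5 KD Ctr libraries alone. Both this comparison and that of Cct7 KD use the libraries of Cct7 KD Ctr. It likewise shares Cct5 KD Ctr with the comparisons of Cct5 KD and of the remainder. The difference between controls and the change in Cct7 KD were 0.48 and 1.65 for Ndrg1, and 0.40 and 1.80 for P4ha1. They were 0.25 and 0.30 for Pgk1, 0.15 and 0.25 for Tpi1, and 0.09 and 0.15 for Gapdh. For the 9 members called lower, they were 0.29 and -0.18 for Aldoc, 0.24 and -0.37 for Hk1, and 0.22 and -0.44 for Pfkl. Ldhb had 0.18 and -1.91, Eno1 0.15 and -0.23, and Ankrd37 0.11 and -0.45. Pkm had 0.11 and -0.34, Pfkm 0.07 and -1.24, and Hk2 0.045 and -0.42.

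**Figure D5:**
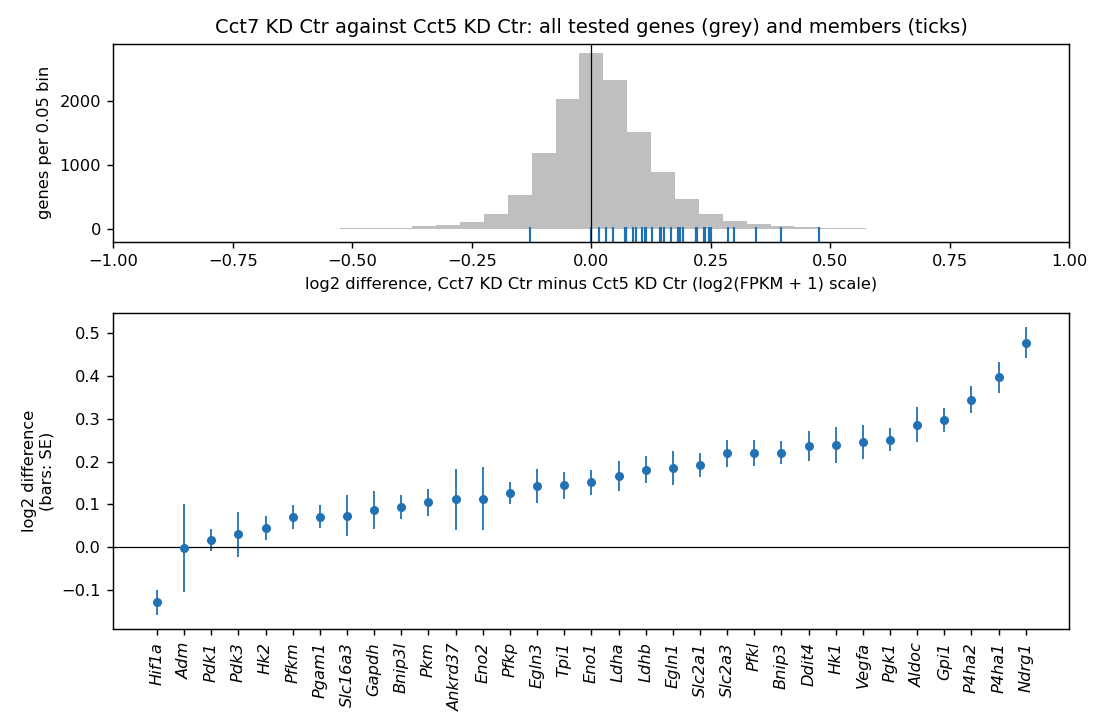
Log2 difference between the control groups, Cct7 KD Ctr minus Cct5 KD Ctr (log2(FPKM + 1) scale), as a histogram of all 12762 tested genes in steps of 0.05 with members as ticks (top), and for each of the 33 members with the SE of the fit (bottom). The genes centre on 0.01, while the members lie mostly to the right of 0, from Hif1a at -0.13 to Ndrg1 at 0.48.

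Other genes of these pathways were read from lists apart from the members. Of 41 further hypoxia and HIF genes 40 were tested, 5 of them with a control mean under 1 FPKM, which passed the filter only through the knockdown. Of the other 35, 26 (74.3%) rose in Cct7 KD and 6 (17.1%) fell, against 45.7% and 34.7% of the 12560 genes with such a control level. At least 2-fold, 15 (42.9%) rose against 9.88%, and the median log2 change was 0.85 against 0.09. Over all 40, with those 5 among them, 19 were at least 2-fold higher as deposited, against 13.5% of all 13588 genes. After median-of-ratios scaling 12 were, against 9.56% of 13546 genes. Loxl2, a collagen-crosslinking oxidase, rose from 3.56 and 3.68 to 32.0 and 32.3 FPKM (2.84), and Hilpda, a lipid droplet protein, from 7.92 and 9.96 to 63.0 and 64.9 (2.72). Ppp1r3c, a glycogen-targeting subunit and 1 of the 5, went from 0.46 and 0.85 to 9.45 and 8.88 FPKM (2.63). Epas1, an alpha subunit related to Hif1a, fell from 4.72 and 4.86 to 2.35 and 2.39 (-0.78), and Arnt, the common partner, fell by 0.26 on the log2 scale. Angptl4 (-0.49) and Jmjd6 (-0.40) also fell. Of 44 further glycolysis and pyruvate genes 31 were tested, 1 of them with a control mean under 1 FPKM. Of the other 30, 15 (50%) rose, 7 (23.3%) fell and 8 did not pass, against 45.7% and 34.7% of the 12560 genes. The share that rose is near that of all genes, and the median was 0.13 against 0.09. After median-of-ratios scaling 9 of the 31 were higher and 15 lower, against 37.1% and 44% of genes, with a median of -0.08. Pfkfb3, which makes the activator of phosphofructokinase, rose from 8.44 and 8.42 to 53.4 and 54.5 FPKM (2.54 ± 0.03, limma adjusted p = 1.11e-06), and its relative Pfkfb4, below 1 FPKM in the control, from 0.81 and 0.76 to 3.66 and 3.32 (1.33). The mitochondrial pyruvate carrier subunits Mpc1 (1.08) and Mpc2 (0.83) rose, and Eno3 (-1.11), Pdp2 (-0.58), Pgam2 (-0.49) and Galm (-0.45) fell. Of 7 pentose phosphate genes, 3 (42.9%) rose and 3 fell, against 49.3% and 32% of all genes: Rpia (0.68), Pgd (0.63) and Pgls (0.48) against Taldo1 (-0.62), Tkt (-0.42) and Rpe (-0.28).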

How the data were processed

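Stranded poly(A) libraries were sequenced in pairs of 150 bp (DNBSEQ-T7), per the labels' protocols. The values are gene FPKM, which the authors deposited as 1 table per knockdown and control, and the submitters' processing notes name HTSeq and mm10. Aligner, annotation, gene lengths and versions were not given in the sources used here. Depth was read from low values of genes with 1 annotated transcript, accepted where at least 95% were whole multiples of 1 fragment within 0.05. That limits low levels, and no count model was used.

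Symbols and coordinates came from GENCODE vM21 of GRCm38, the same assembly as mm10, and promoters from RefSeq GRCm38.p6. IDs listed 2 times were left out, 8 in the Cct5 and 6 in the Cct7 table. The filter was a mean of 1 FPKM or more across the compared libraries, and the test was limma 3.58.1 (R 4.3.3, eBayes, trend over the mean) on log2(FPKM + 1), as deposited without scaling, with Benjamini-Hochberg adjusted p under 0.05 over all genes. That scale understates changes of genes near 0. All 33 members with 1 row passed the filter in each comparison. The fit was tested on simulated data with few changed genes, independent libraries and no shift between them. That test does not cover the scaling or the tie of Cct5 KD to Cct7 KD. The comparisons were of either knockdown to its control, and of the controls to each other.

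Other settings were median-of-ratios scaling, a common FPKM total, no filter, a 2-fold minimum, a pseudocount of 0.1, all 8 libraries in 1 fit, the replicate block, and leaving out each library. The Cct5 remainder replaced the Cct5 KD values in a further setting, and its scaling to a common total was chosen after seeing the data, as was the control mean of 1 FPKM for the further lists. The multiple 1.125 is the most common ratio between the tables. The members and lists were chosen with earlier results of these data known. Every member is named. Of other lists, up to 4 genes per direction were named that passed in Cct7 KD without overlap, averaged at least 2 FPKM and kept their sign under median-of-ratios scaling. Of the genes this rule takes, 1 is not reported here.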

Additional observations from a re-analysis of the deposited data

Results flagged for a closer look

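For 8 members both Cct7 KD libraries were below both of their controls while both Cct5 KD libraries were above both of theirs, which is why they are set out here. The same held for 18.8% of 13538 genes. The log2 change in Cct5 KD minus that in Cct7 KD was 0.96 for Hk1, 0.44 for Hk2, 0.83 for Pfkl, 0.72 for Pfkp, 1.17 for Aldoc, 0.78 for Eno1, 0.67 for Pkm and 0.49 for Ankrd37. All but Ankrd37 are glycolytic enzymes, as are 14 of the 33 tested members. By limma, Hk2 and Ankrd37 did not pass in Cct5 KD, and Pfkp did not pass in Cct7 KD. The difference between the knockdowns was not tested, and the Cct5 KD values include a multiple of Cct7 KD. After median-of-ratios scaling, 1 of the 8, Aldoc, still had opposite signs, at -0.42 in Cct7 KD and 0.20 in Cct5 KD.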

How the results depend on the processing

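In Cct7 KD no member changed sign when each library was left out. A fold of at least 2 gave 11 higher and 2 lower, against 13.5% and 6.6% of 13588 genes. Signs turned under median-of-ratios scaling for Gapdh (-0.10), Pgam1 (-0.22) and Pdk1 (-0.13), and under a common total for Pfkp (0.0051). In Cct5 KD, 29 higher and 1 lower became 18 and 0 at 2-fold, while the lower count was 11 under median-of-ratios scaling, 6 under a common total, 7 in the remainder with median-of-ratios scaling and 11 with a common total. Leaving out each library turned the sign of Ldhb alone, with the values given below.

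Signs turned in Cct5 KD under median-of-ratios scaling for Hk1 (-0.21), Hk2 (-0.80), Pfkl (-0.43), Pfkp (-0.16), Pgam1 (-0.15), Eno1 (-0.27), Pkm (-0.50), Pdk1 (-0.26) and Ankrd37 (-0.77). Under a common total they turned for Hk2 (-0.56), Pfkl (-0.19), Eno1 (-0.032), Pkm (-0.25), Pdk1 (-0.017) and Ankrd37 (-0.54). In the remainder with median-of-ratios scaling they turned for Hk2 (-1.29), Pfkl (-0.12), Pkm (-0.33), Ldhb (0.76), Pdk1 (-0.61), Slc16a3 (-0.10), Egln3 (-0.53) and Ankrd37 (-1.37). With a common total they turned for Hk2 (-1.46), Pfkl (-0.30), Pfkp (-0.084), Pgam1 (-0.14), Eno1 (-0.11), Pkm (-0.51), Ldhb (0.59), Pdk1 (-0.78), Slc16a3 (-0.27), Egln3 (-0.69) and Ankrd37 (-1.54). Ldhb, near 0 in Cct5 KD, was -0.044 to 0.0062 with each library left out. The cause was not tested.

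With the remainder, shares were 46.6% for Hk2, 8.85% for Pfkm, 63.4% for Pfkp, 1.12% for Eno2, 14.5% for Ldhb, 45.5% for Pdk3, 3.84% for Slc2a1, 46.7% for Egln3, 83.1% for Bnip3 and 25.3% for P4ha2. Between the controls, 5 members were called higher under a common total, against 0.11% of 12761 genes. All 8 libraries in 1 fit gave 18 higher and 1 lower, against 2.01% and 1.2% of 13840 genes.

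Replicate numbers did not pair the samples: deviations of same-numbered libraries had correlations of -0.04, -0.01 and 0.04 in the 3 comparisons. The replicate block gave 21 higher and 9 lower members in Cct7 KD, 29 and 1 in Cct5 KD and 0 and 0 between the controls. Over all genes in Cct7 KD it gave 6633 higher and 4335 lower against 6702 and 4353. In Cct5 KD it gave 11095 and 1645 of all genes against 11057 and 1605. Depth limits genes of low level, such as Adm and Eno2 in the controls.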
